A study of Caenorhabditis elegans with 12 samples.

Results

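Expression of 10 genes of glycolysis, gluconeogenesis and the glyoxylate cycle was compared across 4 genotypes of the nematode Caenorhabditis elegans. They were taken as a named list, found by WormBase gene identifier in the count tables, with symbols from the WBcel235 annotation. They were icl-1 (WBGene00001564, also gei-7) on chromosome V, pck-1 (WBGene00021043) on III, pck-2 (WBGene00011232), fbp-1 (WBGene00001404) and pyk-1 (WBGene00009126) on I, pyk-2 (WBGene00014001) on IV, ldh-1 (WBGene00002262) on II, and gpd-2 (WBGene00001684), gpd-3 (WBGene00001685) and pfk-1.1 (WBGene00022199) on X. They are 10 of the 46739 genes in the tables, and all 10 were among the 14390 genes with enough counts to be tested. This list, like the pathway and marker lists below, was chosen with earlier results of these data known. Counts of called genes set beside shares of all tested genes are therefore descriptions.

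Glycolysis breaks glucose down to pyruvate, and gluconeogenesis rebuilds glucose by running most of the same reactions backwards. The steps that cannot be reversed have enzymes of their own in each direction, so some genes serve glycolysis only, some gluconeogenesis only, and some both. Nematodes also have a glyoxylate cycle, a bypass of the tricarboxylic acid cycle that mammals lack and through which carbon from fat can be turned into sugar. icl-1 encodes the enzyme of that bypass, with isocitrate lyase and malate synthase activity in a single protein. pck-1 and pck-2 encode phosphoenolpyruvate carboxykinase and fbp-1 fructose-1,6-bisphosphatase, the committed enzymes of gluconeogenesis. pfk-1.1 encodes phosphofructokinase, and pyk-1 and pyk-2 pyruvate kinase, which act in glycolysis only. gpd-2 and gpd-3 encode glyceraldehyde-3-phosphate dehydrogenase, which works in both directions, and ldh-1 encodes lactate dehydrogenase, which interconverts pyruvate and lactate.

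RNA of whole worms labelled late L4, the last larval stage, and grown at 20 °C was sequenced in 3 libraries per genotype. The genotypes were eat-2(ad465) (strain DA465), acs-20(tm3232) (strain DCL29), the double mutant eat-2(ad465); acs-20(tm3232) (strain DCL33) and wild-type (strain N2). The product of eat-2 is part of a nicotinic acetylcholine receptor in the pharynx. Its mutants pump slowly, take in less food and are widely used to study dietary restriction. The product of acs-20 is an acyl-CoA synthetase of the fatty acid transport protein type, needed for the barrier of the body surface. Each mutant genotype was 1 strain carrying its mutations in every cell, so other differences between strains cannot be told apart from the mutations. The labels do not say whether libraries of a genotype came from separate cultures, so p-values measure only the spread between these libraries. RNA came from whole animals, in which fewer cells of a type and less RNA per cell cannot be told apart.

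The libraries held 7116623 to 12016769 counts in genes, of which the 10 genes together took 0.297 to 0.371%. Single counts of a member ran from 591 to 12228 per library. eat-2 itself was read 0 times in eat-2 libraries, 4 times in acs-20, 1 time in the double mutant and 3 times in wild-type, too few to check the labels. The acs-20 gene was read 734 to 1149 times per eat-2 library, 780 to 1027 times per acs-20 library, 678 to 970 times per double mutant library and 953 to 1333 times per wild-type library. Counts over a whole gene do not check an allele that removes only part of it. No marker of intestine, body wall muscle, epidermis, germline, sperm, neurons or pharynx among those tested was at 0 in any genotype.

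Levels below are in counts-per-million (CPM), scaled with edgeR's TMM factors, and for comparisons between genes CPM per kilobase of exon. Per kilobase, the levels of the 10 genes in wild-type spanned a wide range. gpd-3 was highest at 632 ± 29.4 CPM per kilobase (SD, n = 3), followed by gpd-2 at 494 ± 39.6 and pck-2 at 337 ± 29.9. icl-1 stood at 164 ± 9.33 and ldh-1 at 106 ± 4.35 CPM per kilobase. fbp-1 (73.2 ± 6.25), pyk-1 (69.7 ± 3.57), pyk-2 (59.3 ± 3.25) and pck-1 (53.2 ± 3.43) lay close together, and pfk-1.1 was lowest at 28.3 ± 1.32. In that order fbp-1 and pyk-1, and pyk-2 and pck-1, differed by less than their summed SDs, and every other pair of neighbours by more. With the longest transcript in place of all exons as the length, pyk-1 stood at 100.2 CPM per kilobase, above fbp-1 at 81.0 and next to ldh-1, so the order of these genes depends on the length used.

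**Figure D1:**
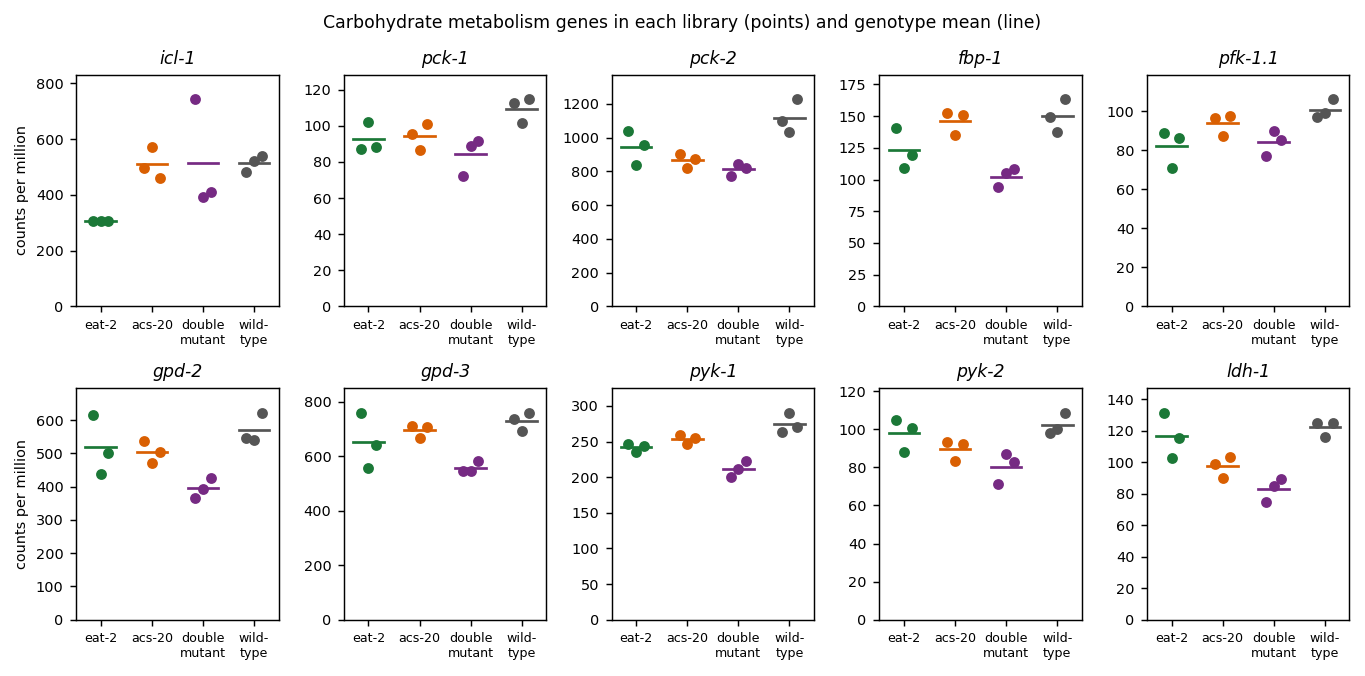
Level of each of the 10 genes in every library, in CPM (vertical axes from 0), with eat-2, acs-20 and double mutant libraries left of wild-type; points are libraries and lines genotype means. Apart from icl-1, where 1 double mutant library stands at 742 CPM, the double mutant libraries lie below the wild-type libraries in every panel.

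What both mutations do together was measured by setting the double mutant against wild-type. Of the 10 genes 8 were lower in the double mutant and none was higher, at a Benjamini-Hochberg adjusted p under 0.05 in edgeR's quasi-likelihood test over all 14390 genes. The 8 were pck-1, pck-2, fbp-1, gpd-2, gpd-3, pyk-1, pyk-2 and ldh-1. Among all tested genes 17.6% were called in either direction, 8.94% higher and 8.62% lower. Among the 2352 genes with a mean log2 CPM of at least 6, a level limit that was set after the data had been seen, 26.3% were called lower. The median log2 fold change was -0.38 over the 10 genes and 0.04 over all tested genes. In 9 of the 10 genes all double mutant libraries lay below all wild-type libraries, which held for 16.1% of all tested genes.

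The 3 genes of gluconeogenesis all fell. fbp-1 had 94.0, 105 and 108 CPM in the double mutant libraries, against 149, 138 and 163 CPM in wild-type. The groups did not overlap, and fbp-1 fell by 31.7% (log2 fold change -0.55, SE 0.111, adjusted p = 0.00418). pck-2, whose enzyme feeds oxaloacetate carbon into glucose synthesis, had 771, 845 and 822 CPM in the double mutant, against 1097, 1031 and 1226 CPM in wild-type. Here too every double mutant library was below every wild-type library, and the fold change was -0.46 (SE 0.0968, adjusted p = 0.00541). Its less abundant partner pck-1 had 72.3, 89.0 and 91.3 CPM in the double mutant, against 113, 101 and 115 CPM in wild-type. pck-1 fell as well, with a gap between the groups (-0.38, SE 0.111, adjusted p = 0.0304).

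Genes that serve glycolysis only showed the same direction. pyk-1, the more strongly read of the pyruvate kinase genes, had 199.9, 211 and 222 CPM in the double mutant and 263, 291 and 270.4 CPM in wild-type. Its groups were clearly apart (-0.38, SE 0.0832, adjusted p = 0.00683). pyk-2 had 71.3, 86.9 and 82.8 CPM in the double mutant and 98.1, 100.3 and 109 CPM in wild-type, again with no overlap (-0.35, SE 0.103, adjusted p = 0.0318). An antisense RNA gene, ZK593.11, overlaps 204 bases of pyk-2 exons (11.8%), and with the strand setting not given its reads cannot be told apart from those of pyk-2 there. pfk-1.1 had 77.0, 89.9 and 85.4 CPM in the double mutant and 97.1, 99.2 and 106 CPM in wild-type. Its groups did not overlap either, but the difference was not past the threshold (-0.26, 95% interval -0.48 to -0.04, adjusted p = 0.102).

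The glyceraldehyde-3-phosphate dehydrogenase genes gpd-2 and gpd-3 lie next to each other on the same strand of chromosome X, 101 bases apart, and are known as members of an operon. gpd-2 had 367, 394 and 425 CPM in the double mutant, against 545, 541 and 622 CPM in wild-type (-0.53, SE 0.120, adjusted p = 0.00844). gpd-3 had 545, 548 and 581 CPM in the double mutant, against 737, 693 and 760.0 CPM in wild-type (-0.39, SE 0.103, adjusted p = 0.0185). Both fell with no overlap between the groups. The genes are close paralogs, and how their shared reads were divided is not given in the sources used here.

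The lactate dehydrogenase gene fell by about as much as fbp-1. ldh-1 stood at 75.1, 85.2 and 89.5 CPM in the double mutant, against 125, 116 and 125 CPM in wild-type, a fall of log2 -0.55 (SE 0.107, adjusted p = 0.00329) with a wide gap between the groups. icl-1 was split. It had 742, 394 and 409.9 CPM in the double mutant, against 481, 521 and 539 CPM in wild-type. The first double mutant library was above all wild-type libraries and the other two were below them, and the fitted fold change was 0.004 (SE 0.193, adjusted p = 0.991). Without double mutant replicate 1 the icl-1 fold change was -0.37 and past the threshold (adjusted p = 0.0349).

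The calls differed in how far they rested on single libraries. Those of fbp-1, pck-2, gpd-2, pyk-1 and ldh-1 held in all 12 fits that left out a library, with adjusted p up to 0.0396. Those of pck-1, gpd-3 and pyk-2 ended without wild-type replicate 1 (adjusted p of 0.0968, 0.0600 and 0.0614), without wild-type replicate 3 (0.0996, 0.0662 and 0.113) and without double mutant replicate 1 (0.0996, 0.0506 and 0.102). The call of gpd-3 also ended without double mutant replicate 2 (0.0600), and pfk-1.1 passed the threshold without eat-2 replicate 2 (0.0465).

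Scaling touched these results as well. TMM factors were 1.019 to 1.098 in the double mutant and 0.921 to 0.988 in wild-type. With library totals and no TMM factors, an alternative added after the data had been seen, the median of all genes moved by 0.14, to a log2 of 0.18. The fold changes of the 10 genes moved with it, to a median of -0.24, and stood 0.42 below the median of all genes under both scalings. On library totals 4 of the 10 stayed past the threshold, namely fbp-1 (-0.40), pck-2 (-0.31), gpd-2 (-0.38) and ldh-1 (-0.41), and 5.41% of all genes were called lower. gpd-3 and pyk-1 then had an adjusted p of 0.0522 each, pck-1 of 0.139 and pyk-2 of 0.120.

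Markers of stage and tissue moved in the same comparison. The summed level of 8 adult cuticle and yolk genes, which mark the passage to adulthood, was 1891 to 2765 CPM in the double mutant and 6453 to 7925 CPM in wild-type, and 5 of the 8 were lower. Epidermis markers summed to 3612 to 4839 CPM in the double mutant and 5536 to 9298 CPM in wild-type (3 of 8 lower), and body wall muscle markers to 5677 to 6918 CPM in the double mutant and 7377 to 8563 CPM in wild-type (3 of 8 lower). Intestine markers overlapped, at 10709 to 12217 CPM in the double mutant and 11192 to 12580 CPM in wild-type (1 of 8 lower). Pharynx markers stood at 198 to 213 CPM in the double mutant and 206 to 232 CPM in wild-type, with 1 of 7 higher. That marker was pha-4, which is also counted among the regulators below. Markers of germline, sperm and neurons overlapped between the groups with none called. The part of these differences in the values of the 10 genes was not tested.

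**Figure D2:**
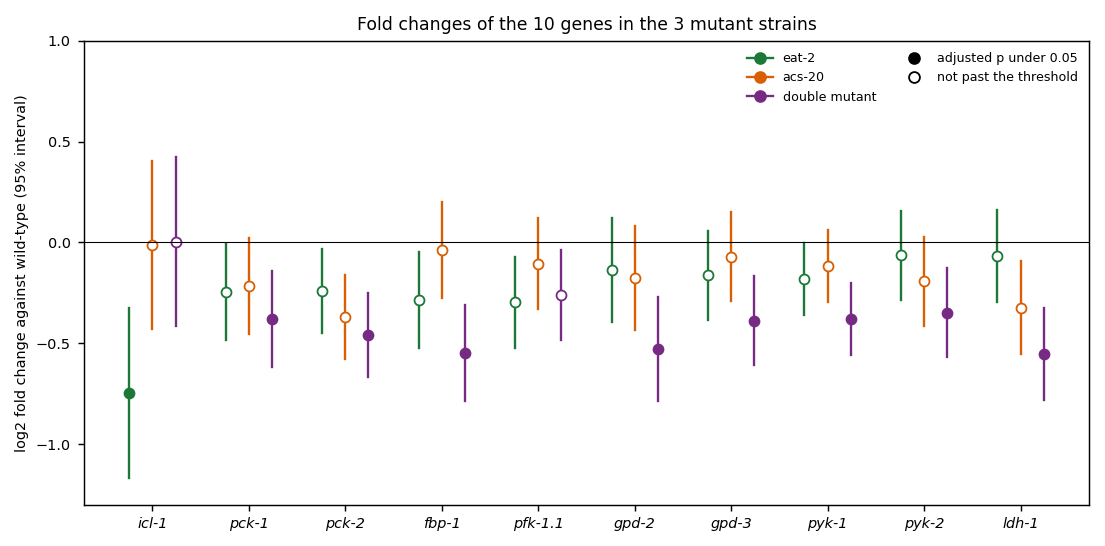
Log2 fold change of each of the 10 genes against wild-type (vertical axis) in eat-2, acs-20 and the double mutant, with 95% intervals as bars; filled points have an adjusted p under 0.05. In the double mutant 8 genes are filled, in eat-2 icl-1 is the filled gene at -0.75, and in acs-20 none is filled.

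eat-2 was compared with wild-type to ask what the feeding mutation does while acs-20 is intact. Of the 10 genes icl-1 was called, as lower, against 7.67% of all tested genes called in either direction and 3.54% called lower (8.21% of the genes with a mean log2 CPM of at least 6). icl-1 stood at 306, 305 and 308 CPM in the eat-2 libraries, against 481, 521 and 539 CPM in wild-type. The eat-2 values lay within a few CPM of each other and far below every wild-type library, and icl-1 fell by 40.4% (log2 fold change -0.75, SE 0.194, adjusted p = 0.0346 in edgeR's quasi-likelihood test). Its call ended without any 1 of the wild-type libraries (adjusted p of 0.0736, 0.0724 and 0.0974 without replicates 1, 2 and 3) or of the eat-2 libraries (0.1002, 0.0954 and 0.0934), while the fold change stayed between -0.79 and -0.71. On library totals without TMM factors it was not past the threshold either.

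The other 9 genes had negative fold changes in eat-2 that did not pass the threshold, from -0.06 for pyk-2 to -0.30 for pfk-1.1. pfk-1.1 had 88.9, 70.7 and 86.5 CPM in eat-2 and 97.1, 99.2 and 106 CPM in wild-type, without overlap (adjusted p = 0.104). pyk-1 had 247, 236 and 244 CPM in eat-2 and 263, 291 and 270.4 CPM in wild-type, also without overlap (-0.18, adjusted p = 0.221). With icl-1 these were 3 genes whose groups were apart, all lower in eat-2, where 11.5% of all tested genes were apart and lower. fbp-1 had 141, 109 and 119.2 CPM in eat-2 and 149, 138 and 163 CPM in wild-type, and pck-2 had 1038, 840.3 and 957 CPM in eat-2 and 1097, 1031 and 1226 CPM in wild-type. Both overlapped by a single library, with fold changes of -0.28 and -0.24. pck-1 had 87.1, 102 and 88.3 CPM in eat-2 and 113, 101 and 115 CPM in wild-type (-0.25). gpd-2 (616, 438 and 500.4 CPM in eat-2) and gpd-3 (757, 559 and 642 CPM in eat-2) overlapped with wild-type. ldh-1 (132, 103 and 115 CPM in eat-2) and pyk-2 (105, 88.0 and 101 CPM in eat-2) spanned or touched the wild-type values given above. The median fold change of the 10 genes was -0.21, against 0.04 for all tested genes. In the same comparison, adult cuticle and yolk markers summed to 2596 to 3891 CPM in eat-2 and 6453 to 7925 CPM in wild-type (2 of 8 lower). The 2 called were the yolk genes vit-2 and vit-5. No cuticle gene of that list was called, with SEs of 0.886 to 0.995 for the 3 col genes. Still, col-19 (-2.33), col-7 (-2.69), col-62 (-2.95) and rol-1 (-0.65) were lower without overlap (adjusted p of 0.116 to 0.161). The cuticle genes bli-1 (-0.43) and bli-2 (-0.36) overlapped. Body wall muscle markers summed to 5823 to 6745 CPM in eat-2 and 7377 to 8563 CPM in wild-type (3 of 8 lower). Intestine markers summed to 12798 to 16696 CPM in eat-2 and 11192 to 12580 CPM in wild-type (1 of 8 lower). Their median log2 fold change was 0.05, against 0.04 for all tested genes, so the higher sum was not shared across the list. Pharynx markers summed to 147 to 185 CPM in eat-2 and 206 to 232 CPM in wild-type, with 1 of 7 lower. Their part in these values was not tested.

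acs-20 was set against wild-type to ask what the mutation in this lipid enzyme does where eat-2 is intact. None of the 10 genes was called by edgeR's quasi-likelihood test, where 2.21% of all tested genes were, although 2 had an unadjusted p under 0.05 and DESeq2 called 1. Those 2 were pck-2 and ldh-1. pck-2 had 905, 819 and 875 CPM in acs-20 and 1097, 1031 and 1226 CPM in wild-type, with every acs-20 library below every wild-type library (-0.37, SE 0.0968, adjusted p = 0.0736). Its adjusted p was 0.0497 when eat-2 replicate 1 was left out and 0.0426 when replicate 2 was. ldh-1 had 99.3, 90.3 and 103 CPM in acs-20 and 125, 116 and 125 CPM in wild-type, again apart (-0.32, SE 0.107, adjusted p = 0.168).

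Values of 4 further genes were also apart and lower in acs-20: pck-1 (95.7, 86.5 and 101 CPM in acs-20), gpd-2 (538, 470.0 and 505 CPM in acs-20), pyk-1 (259, 246 and 255 CPM in acs-20) and pyk-2 (93.3, 83.2 and 92.4 CPM in acs-20). Their fold changes were -0.21, -0.18, -0.12 and -0.19, with adjusted p-values of 0.413 to 0.564. Among all tested genes 10.8% were apart and lower. icl-1 (497, 569.9 and 461 CPM in acs-20), fbp-1 (152, 135 and 151 CPM in acs-20), gpd-3 (712, 666 and 708 CPM in acs-20) and pfk-1.1 (96.4, 87.4 and 97.6 CPM in acs-20) overlapped with wild-type. The 95% interval of the icl-1 fold change was -0.43 to 0.41. Pharynx markers summed to 94.1 to 139 CPM in acs-20 and 206 to 232 CPM in wild-type, with 3 of 7 lower, and no other tissue list had a marker called. Their part in these values was not tested.

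Adding the acs-20 mutation to eat-2 was measured by the double mutant against eat-2. Among the 10 genes ldh-1 was called, as lower, against 2.11% of all tested genes called in either direction and 0.757% lower (1.53% at a mean log2 CPM of at least 6). ldh-1 stood at 75.1, 85.2 and 89.5 CPM in the double mutant and 132, 103 and 115 CPM in eat-2, with no overlap (log2 fold change -0.48, SE 0.107, adjusted p = 0.0316). The call ended without wild-type replicate 1 (0.0530), eat-2 replicate 1 (0.0917) or 3 (0.0882), or double mutant replicate 1 (0.142) or 2 (0.0956), and with the compared samples alone (0.0689). icl-1 had 742, 394 and 409.9 CPM in the double mutant and 306, 305 and 308 CPM in eat-2, so that all double mutant libraries were above all eat-2 libraries. Its fold change of 0.75 (SE 0.194) was just outside the threshold (adjusted p = 0.0694). It was past it without double mutant replicate 2 (0.92, 0.0347) or 3 (0.90, 0.0357) and 0.40 without double mutant replicate 1 (0.236). fbp-1, gpd-2, pyk-1 and pyk-2 were apart and lower in the double mutant with fold changes of -0.27, -0.39, -0.20 and -0.28, none past the threshold. In all, 6 of the 10 genes were apart, as were 16.7% of all tested genes in either direction. Of the tissue markers none was called in this comparison, but the summed levels of 3 lists did not overlap. Epidermis markers summed to 3612 to 4839 CPM in the double mutant and 5784 to 7621 CPM in eat-2, and intestine markers to 10709 to 12217 CPM in the double mutant and 12798 to 16696 CPM in eat-2. Pharynx markers summed to 198 to 213 CPM in the double mutant and 147 to 185 CPM in eat-2. Their part in the values of the 10 genes was not tested.

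Adding the eat-2 mutation to acs-20 was measured by the double mutant against acs-20. fbp-1 was called, as lower, while 12.9% of all tested genes were called in either direction and 5.31% lower (16.8% at a mean log2 CPM of at least 6). It had 94.0, 105 and 108 CPM in the double mutant and 152, 135 and 151 CPM in acs-20, a clear gap (-0.51, SE 0.111, adjusted p = 0.00943). This call held in all 12 fits that left out a library, with adjusted p up to 0.0425. Just outside the threshold lay pyk-1 (-0.26, adjusted p = 0.0529), gpd-3 (-0.32, 0.0570) and gpd-2 (-0.35, 0.0701), whose groups were apart. All 3 passed the threshold with the replicate number as a block and in DESeq2, gpd-2 and gpd-3 with no filter and with the compared samples alone, and gpd-3 and pyk-1 with RLE factors. Each of these 3 also passed in some of the fits that left out a library, among them those without eat-2 replicate 1 (0.0493, 0.0195 and 0.0257) and eat-2 replicate 2 (0.0406, 0.0222 and 0.0355), while pyk-1 alone did so without wild-type replicate 2 (0.0456) and without double mutant replicate 3 (0.0489). With ldh-1 (-0.23, adjusted p = 0.187), 5 of the 10 genes were apart and lower, against 15.3% of all tested genes. pck-2, which had -0.37 in acs-20 against wild-type, differed by -0.09 between the double mutant and acs-20 (95% interval -0.30 to 0.12). In this comparison 5 of 7 pharynx markers were higher, with sums of 198 to 213 CPM in the double mutant and 94.1 to 139 CPM in acs-20, and adult cuticle and yolk markers summed to 1891 to 2765 CPM in the double mutant and 5462 to 9055 CPM in acs-20, with 5 of 8 lower. Epidermis (1 higher and 3 lower of 8), neuron (2 of 8 higher), body wall muscle (2 of 8 lower) and intestine (1 of 8 lower) markers were also called. The part of these in the values of the 10 genes was not tested.

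The interaction term measured whether the difference between the double mutant and acs-20 was unlike that between eat-2 and wild-type. None of the 10 genes was called by edgeR, where 0.188% of all tested genes were. By unadjusted p under 0.05 there was 1 gene, icl-1, and DESeq2 called 0. For icl-1 the term was 0.76 on the log2 scale (SE 0.273, adjusted p = 0.554), and 0.41 without double mutant replicate 1. For the other 9 genes the term lay between -0.23 (fbp-1) and 0.15 (pck-2), each with a 95% interval that included 0.

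The balance between the branches was taken within each library. The summed level per kilobase of pck-1, pck-2 and fbp-1 over that of pfk-1.1, pyk-1 and pyk-2 had a mean log2 ratio of 1.46 ± 0.0447 in eat-2, 1.41 ± 0.0150 in acs-20, 1.44 ± 0.0193 in the double mutant and 1.56 ± 0.120 in wild-type (SD, n = 3 each). In wild-type the single values were 1.60, 1.42 and 1.65, so that the lowest of them lay within the range of the mutants. pck-2 exceeded pck-1 by a log2 of 2.67, 2.51 and 2.59 in eat-2, acs-20 and the double mutant and by 2.66 in wild-type, and eat-2 and double mutant values overlapped those of wild-type. The acs-20 values of 2.42 to 2.55 lay below the 2.60 to 2.73 of wild-type. The ratio of gpd-3 to gpd-2 was 0.45 to 0.57 in the double mutant and 0.28 to 0.43 in wild-type, without overlap. In eat-2 it was 0.29 to 0.36, within the range of wild-type, and in acs-20 it was 0.40 to 0.50, which overlapped both wild-type and the double mutant.

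Across the 12 libraries icl-1 varied apart from the rest. Its Pearson correlation of log2 CPM with each of the other 9 genes ran from -0.42 to 0.26, with a median of -0.10. The 36 pairs among those 9 had correlations of 0.50 to 0.96, with a median of 0.78. All values share the same libraries and scaling factors, and these are descriptions without a test. Among 8714 genes with a mean log2 CPM of at least 3, the patterns most like that of icl-1 were those of R12H7.4 (r = 0.91), lron-7 (0.91) and T22B7.3 (0.90). Closest to fbp-1 were rips-1 (0.99), let-767 (0.98) and atp-3 (0.98). atp-3 was also the closest to gpd-3 (0.98), and lbp-6 was the closest to ldh-1 (0.96) and second to pyk-2 (0.95) after sams-1 (0.97). pck-2 was most like acp-6 (0.97), pck-1 most like unc-52 (0.95), pyk-1 most like har-1 (0.98) and gpd-2 most like asp-8 (0.97).

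**Figure D3:**
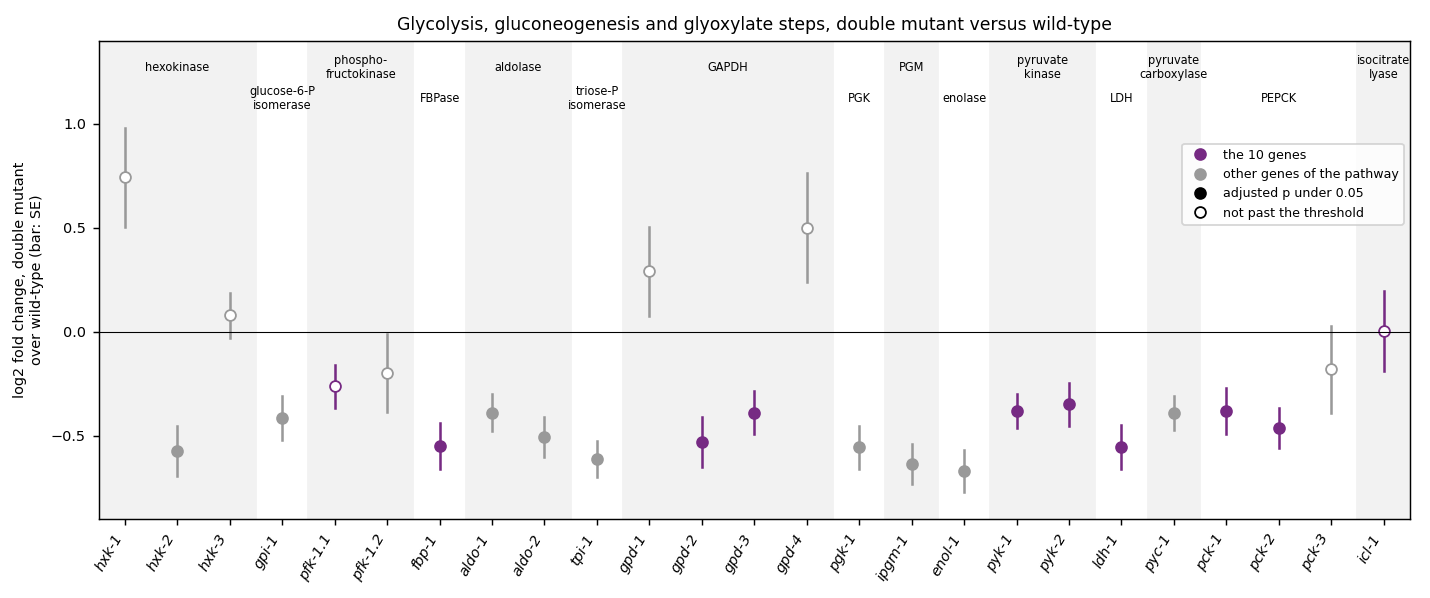
Log2 fold change of the double mutant over wild-type (vertical axis, bars are SE) for genes ordered by their reaction, from hexokinase to isocitrate lyase; purple points are the 10 genes, grey points the others, and filled points have an adjusted p under 0.05. The filled points lie between -0.67 and -0.35. Of the 10 genes pfk-1.1 (-0.26) and icl-1 (0.004) are open, as are the isoform genes hxk-1, hxk-3, gpd-1, gpd-4, pfk-1.2 and pck-3.

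The rest of the glycolytic chain was examined in the same way. In the double mutant against wild-type, 8 of 13 further glycolysis genes were lower and none higher, with a median log2 fold change of -0.41, where 8.62% of all tested genes, and 26.3% of those with a mean log2 CPM of at least 6, were lower. Those 8 were hxk-2 (hexokinase, -0.57), gpi-1 (glucose-6-phosphate isomerase, -0.41), aldo-1 and aldo-2 (aldolase, -0.39 and -0.50), tpi-1 (triosephosphate isomerase, -0.61), pgk-1 (phosphoglycerate kinase, -0.56), ipgm-1 (phosphoglycerate mutase, -0.64) and enol-1 (enolase, -0.67). tpi-1, the gene with the smallest p of that list, had 109, 123 and 123 CPM in the double mutant and 175, 174 and 193 CPM in wild-type, far apart (SE 0.0872, adjusted p = 0.000426). enol-1 had 422, 492 and 515 CPM in the double mutant and 738, 700.0 and 832 CPM in wild-type (SE 0.102, adjusted p = 0.000655). The calls of tpi-1 and enol-1 held in all 12 fits that left out a library. gpi-1 was not past the threshold without wild-type replicate 3 (0.0659) or double mutant replicate 1 (0.0503), nor aldo-1 without wild-type replicate 1 (0.0503).

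Genes for other forms of the same enzymes were not called. gpd-1 averaged 52.1 ± 7.08 CPM in the double mutant and 42.5 ± 8.87 CPM in wild-type (0.29, adjusted p = 0.395), and gpd-4 averaged 43.4 ± 2.05 CPM in the double mutant and 30.6 ± 10.8 CPM in wild-type (0.50, adjusted p = 0.219; SD, n = 3 each). hxk-1 averaged 67.0 ± 16.3 CPM in the double mutant and 39.9 ± 6.98 CPM in wild-type, with a fold change of 0.74 just outside the threshold (adjusted p = 0.0506). It was past the threshold in 5 of the 12 fits that left out a library, such as that without wild-type replicate 2 (0.88, 0.0463). hxk-3 (0.08), pfk-1.2 (-0.20) and pck-3 (-0.18, adjusted p = 0.606) were well outside it. Pyruvate carboxylase, which supplies oxaloacetate to the carboxykinase, was lower in the double mutant (pyc-1, -0.39, adjusted p = 0.00517).

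In eat-2 against wild-type, 4 of the 13 glycolysis genes were lower: tpi-1 (-0.40), pgk-1 (-0.40), ipgm-1 (-0.34) and enol-1 (-0.39), where 3.54% of all tested genes and 8.21% of those with a mean log2 CPM of at least 6 were lower. These calls were near the threshold. The one of tpi-1 ended without wild-type replicate 3 (0.0539), that of pgk-1 in 5 of 12 fits that left out a library, that of enol-1 in 4 (adjusted p up to 0.125) and that of ipgm-1 in 9. In acs-20 none of the 13 was called. The comparisons with wild-type share the same 3 wild-type libraries, so their values are not independent of each other. Against acs-20, the double mutant had tpi-1 (-0.47), pgk-1 (-0.48), ipgm-1 (-0.50) and enol-1 (-0.42) lower, enol-1 not without acs-20 replicates 1 (0.0542) or 3 (0.0629) or double mutant replicate 1 (0.0553).

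Neighbouring pathways were counted from 7 lists that together held 100 genes, 98 of them tested. The lists were chosen with earlier results of these data known, so their counts are descriptions. In the double mutant 40 of the 98 were lower than in wild-type and 5 higher, with a median of -0.24. Over all tested genes 8.62% were lower and 8.94% higher, and 26.3% of those with a mean log2 CPM of at least 6 were lower. These shares stand beside each list below. The lists also hold genes under that level, such as tps-1 and gpdh-1, for which the 26.3% is not a like background. On library totals without TMM factors 27 of the 98 were lower and 9 higher. Around pyruvate, 7 of 13 genes were lower and 1 higher, which fell to 3 called in all without wild-type replicate 3 or double mutant replicate 1, to 4 without wild-type replicate 1 and to 5 without double mutant replicate 2. The tricarboxylic acid cycle had 9 of 24 lower and none higher, led by the succinyl-CoA ligase subunit gene sucl-2, with 91.7, 106 and 118 CPM in the double mutant and 164, 149 and 167 CPM in wild-type (-0.60, adjusted p = 0.00132). In the pentose phosphate pathway 4 of 7 were lower. The transketolase gene tkt-1 led them, at 486, 653 and 659 CPM in the double mutant against 912, 933 and 1100.1 CPM in wild-type (-0.71, adjusted p = 0.00108). The other 3, named after their values were seen, were rpia-1 (-0.62), tald-1 (-0.55) and T25B9.9 (-0.37). In eat-2 against wild-type sucl-2 and tkt-1 were lower too (-0.41 and -0.51, adjusted p of 0.0230 and 0.0163). Both were also called lower in the double mutant against acs-20.

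Stores of sugar were represented by 17 genes of trehalose and glycogen, of which 7 were lower and 1 higher in the double mutant. The glycogen phosphorylase gene pygl-1, which releases sugar from glycogen, had 409.8, 479 and 496 CPM in the double mutant and 739, 659 and 739.9 CPM in wild-type. It fell with no overlap (-0.63, SE 0.0898, adjusted p = 0.000429). The gene that rose was tps-1, for trehalose-6-phosphate synthase, which makes the precursor of trehalose, a storage and protective sugar of worms. tps-1 had 55.5, 50.2 and 42.7 CPM in the double mutant and 20.8, 26.6 and 24.4 CPM in wild-type, with a fold change of 1.04 (SE 0.150, adjusted p = 0.000429). In eat-2 its values were 42.5, 32.2 and 29.5 CPM (0.53 against wild-type, adjusted p = 0.0472, past the threshold in 3 of 12 fits that left out a library, with adjusted p up to 0.192). pygl-1 was lower in eat-2 too (495, 508 and 516 CPM; -0.49, adjusted p = 0.00408).

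**Figure D4:**
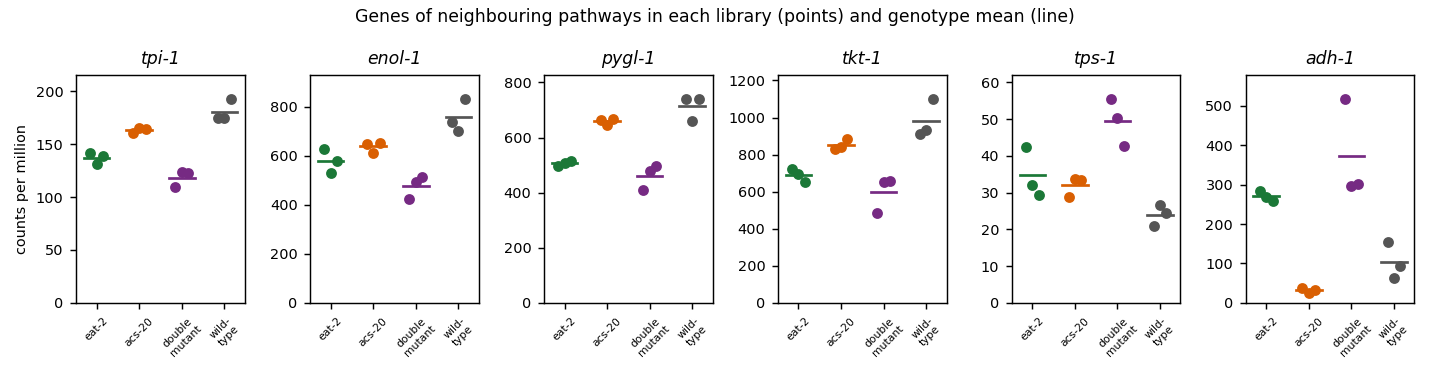
Level of tpi-1, enol-1, pygl-1, tkt-1, tps-1 and adh-1 in every library, in CPM (vertical axes from 0), with eat-2, acs-20 and double mutant libraries left of wild-type; points are libraries and lines genotype means. By genotype mean, tpi-1, enol-1, pygl-1 and tkt-1 are lowest and tps-1 is highest in the double mutant. None of these genes was called between the double mutant and eat-2. adh-1 runs from 23.9 to 38.5 CPM in acs-20 and from 258 to 517 CPM in eat-2 and the double mutant.

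The alcohol dehydrogenase gene adh-1 moved in opposite directions in the single mutants. It had 285, 269 and 258 CPM in eat-2, 38.5, 23.9 and 32.4 CPM in acs-20, 517, 297 and 300.5 CPM in the double mutant and 154, 62.1 and 94.7 CPM in wild-type. No 2 genotypes overlapped. Against wild-type it was higher in eat-2 (1.38, adjusted p = 0.0209), lower in acs-20 (-1.71, adjusted p = 0.0196) and higher in the double mutant (1.84, adjusted p = 0.00268). The eat-2 call ended without wild-type replicate 3 (0.0753) or any eat-2 library, and the acs-20 call without acs-20 replicate 2 (0.0515) or 3 (0.0719). Against acs-20 the double mutant was higher by 3.55 (adjusted p = 0.000119). The interaction of adh-1 (2.17, SE 0.446, adjusted p = 0.102) was not past the threshold in edgeR's test over all 12 libraries, but was with the replicate number as a block (2.05, adjusted p = 0.00886) and in DESeq2 (2.17, adjusted p = 0.000111).

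In acs-20 against wild-type, adh-1 and aagr-1, an acid alpha-glucosidase gene, were the 2 genes called among the 98, and both were lower. Of all tested genes 2.21% were called there, so the count is read as no result about the lists. aagr-1 had 104, 91.2 and 89.0 CPM in acs-20 and 148, 129 and 186 CPM in wild-type (-0.70, adjusted p = 0.00931, or 0.0608 without acs-20 replicate 3). In the double mutant it stood at 177, 149 and 168 CPM, higher than in acs-20 (0.79, adjusted p = 0.00158). Against eat-2, none of the 98 genes was called in the double mutant by edgeR, where 2.11% of all tested genes were. At an unadjusted p under 0.05 there were 22, and DESeq2 called 2. For the interaction edgeR called none either, where 0.188% of all tested genes were called, with 6 at an unadjusted p under 0.05 and 1 in DESeq2. Shares of all tested genes at the unadjusted limit are not given here. Against acs-20, 20 of the 98 were lower in the double mutant and 7 higher, a share of lower genes near the 16.8% of genes with a mean log2 CPM of at least 6 and above the 5.31% of all tested genes. In eat-2 against wild-type 14 were lower and 4 higher, where 7.67% of all tested genes were called in either direction, and on library totals 13 were lower and 7 higher.

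The list of cytosolic and mitochondrial redox shuttle genes had 3 of 6 lower in the double mutant. They were gpdh-1 (glycerol-3-phosphate dehydrogenase, -1.74), gpdh-2 (-0.53) and got-1.2 (aspartate aminotransferase, -0.45), the last pair named after their values were seen. gpdh-1 was lower in eat-2 by nearly as much (-1.70) and averaged 2.95 ± 0.469 CPM in eat-2, 2.89 ± 0.545 CPM in the double mutant and 9.54 ± 1.87 CPM in wild-type. It was also called lower in the double mutant against acs-20. Regulators of carbohydrate metabolism were mixed, with 3 of 18 higher and 2 lower in the double mutant and a median of 0.07, beside 17.6% of all tested genes called in either direction, so the count is read as no result about the list. daf-2, the insulin/IGF-1 receptor gene, had 69.5, 75.4 and 70.6 CPM in the double mutant and 53.2, 46.4 and 53.0 CPM in wild-type, without overlap (0.50, adjusted p = 0.00304). daf-2 was also called higher in the double mutant against acs-20. The other regulators called in the double mutant against wild-type, chosen after their values were seen, were pha-4 (0.77), hlh-30 (0.32), hif-1 (-0.33) and the glucose transporter gene fdgt-1 (-0.43). mml-1, which encodes a Mondo-like transcription factor, was higher in eat-2 (63.98 ± 3.39 CPM, against 47.3 ± 6.55 CPM in wild-type; 0.43, adjusted p = 0.0360), a call that held in 5 of the 12 fits that left out a library, with adjusted p up to 0.170.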

How the data were processed

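RNA of whole worms was measured by sequencing in 12 samples, 3 for each of 4 genotypes. The authors deposited raw read counts per gene, 1 table per sample, with no normalization. Tables end with HTSeq's summary lines, which stayed out of all totals: reads in no feature took 44.1 to 46.5% of each table's total and reads without a unique position 5.21 to 9.99%. Per the submitters' processing notes, FastQC 0.11.5, TopHat2, HTSeq and DESeq2 were used. The sources used here give neither their roles nor the genome build, annotation or strand setting, so no coordinates are printed, and a gene that overlaps another may carry some of its reads. Symbols, chromosomes and exon lengths came from Ensembl release 115 (WBcel235).

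Counts were filtered with edgeR 4.0.16 (R 4.3.3) by filterByExpr (minimum count 10, minimum total 15), which left 14390 genes, scaled with TMM factors of 0.921 to 1.10 and fitted with 4 group means over all 12 samples, with 8 residual degrees of freedom and a common biological coefficient of variation of 0.153. Each of 6 contrasts had a robust quasi-likelihood test, with Benjamini-Hochberg adjustment over all tested genes and calls at an adjusted p under 0.05. Every adjusted p in the text is from these tests unless DESeq2 or another setting is named. Standard errors are the fitted log2 fold change over the square root of F. The steps were tested on simulated data. Intervals and replicate errors rest on 3 libraries per genotype.

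The 10 genes, the 7 pathway lists and the 8 marker lists were chosen with earlier results of these data known. From each pathway list the text names the gene with the smallest p in each comparison where it was called, the genes sharing the reaction chain of the 10, and, for each of the 10 called against wild-type, up to 3 genes with the highest correlation. Of the 100 pathway genes, sodh-2 was not among the tested genes and got-1.3 was not found in the annotation used. The gene pha-4 is in both the regulator and the pharynx list, and bli-1 in both the epidermis and the adult cuticle and yolk list.

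Alternatives were RLE factors, no filter, ribosomal RNA genes left out (2.09 to 6.30% of counts), the replicate number as a block, the compared samples alone, DESeq2 1.42.0, leaving out each sample, the longest transcript as length, and, added after the data had been seen, library totals without TMM factors. No 2 libraries held identical counts.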

Additional observations from a re-analysis of the deposited data

How the results depend on the processing

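Against wild-type, RLE factors and leaving out ribosomal RNA genes changed no call among the 10 genes, and the count of 8 lower in the double mutant also stood with no filter, with the replicate block and in DESeq2, and was 6 with the compared samples alone. On library totals without TMM factors it was 4, and in eat-2 it was 0 there and with no filter, against 1. In acs-20, pck-2 was the 1 gene called with no filter, with the block and in DESeq2. Against eat-2 the double mutant had 2 with no filter and in DESeq2 and 0 with the compared samples alone, where ldh-1 was lost. Against acs-20 it had 3 with RLE factors, no filter or the compared samples alone and 4 with the block and in DESeq2. Leaving out single libraries gave 0 to 1 (eat-2), 0 to 1 (acs-20), 5 to 9 (double mutant), 0 to 2 (double mutant against eat-2), 1 to 4 (against acs-20) and 0 for the interaction.

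Among the pathway genes, the compared samples alone gave 8 called in eat-2, 0 in acs-20 and 3 around pyruvate in the double mutant, where library totals gave 2. Against eat-2 the double mutant had 2 called with no filter, 1 with the block and 2 in DESeq2, and the interaction had 1 in each of these. Without single libraries, 4 to 21, 0 to 2, 32 to 50, 0 to 1 and 11 to 31 pathway genes were called in eat-2, acs-20 and the double mutant against wild-type and in the double mutant against eat-2 and against acs-20, in that order, with 3 to 9 around pyruvate and 3 to 5 regulators in the double mutant.

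Signs that turned belonged to fold changes near 0 in the main fit, but not all turned values were near 0. Without double mutant replicate 1, icl-1 in the double mutant against wild-type was at -0.37 and past the threshold (adjusted p = 0.0349). For icl-1 in this comparison the fold changes were -0.033 (RLE), -0.043 (no filter), -0.027 (block), -0.0028 (compared samples alone) and -0.033 (DESeq2), and -0.37 to 0.16 without single libraries. Against acs-20 they were -0.0040 (RLE), -0.0060 (no filter), -0.010 (block) and -0.0038 (DESeq2), and -0.36 to 0.17. In acs-20, icl-1 had 0.053 and fbp-1 0.031 on library totals, and -0.10 to 0.055 and -0.094 to 0.028 without single libraries. pyk-2 in eat-2 had 0.0021 on library totals, and pfk-1.1 -0.054 to 0.10 against eat-2 without single libraries. The causes were not tested.

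With the longest transcript as length, wild-type levels per kilobase were 387 for pck-2, 81.0 for fbp-1, 30.8 for pfk-1.1 and 100.2 for pyk-1, and the log2 ratios 2.86 (pck-2 to pck-1) and -0.76 (pyk-2 to pyk-1, -0.24 otherwise). Deviations of samples with the same replicate number had correlations of -0.09 to 0.43 (median 0.14, 9 of 18 over 0.1). Between samples with other numbers they were -0.47 to 0.39 (median -0.06, 7 of 36 over 0.1). Of the 12 samples 7 were closest to a sample of their own number. Some shared deviation by number was thus seen, but no pairing is stated, so the block is given as an alternative. The interaction has no fit with the compared samples alone, since it needs all 4 genotypes. With 3 libraries per genotype, log2 fold changes of single mutants as far from 0 as -0.37 (pck-2 in acs-20) were not called, so a missing call does not show that a gene was unchanged.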
